A study of Mus musculus with 4 samples.

Results

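Serpina3g, Ifitm1, Ifitm2 and Ifitm3 are 4 of the 13978 gene symbols counted in sorted mouse bone marrow progenitors, and their levels were compared between a leukemic and a non-leukemic host. Serpina3g encodes a serpin, an inhibitor of proteases. The Ifitm genes encode interferon-induced transmembrane proteins. The 4 genes were chosen by name and selected on values measured in these cells, the differences between the groups, so all levels and differences below are descriptions without a test.

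Wt CD45.1 mice were injected with 150000 primary B-cell acute lymphoblastic leukemia (B-ALL) cells, called LN768, from a lymph node of a single leukemic Cd45.2+/+ Ebf1+/-Pax5+/- mouse. Control mice of the same kind received PBS. These groups, the B-ALL environment and the PBS control, are called leukemic and control hosts below. After 3 weeks, KIT+Lin-CD45.2-CD45.1+ bone marrow cells, which are host cells and not the injected tumor, were sorted and sequenced with a droplet kit that counts molecules (UMIs) at the 3' end of transcripts. The age and sex of the mice are not given in the sources used here, and the tumor of 1 mouse stands for the disease.

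Although 2 samples per group are labelled, the deposited cells carry the group alone. Each group is therefore 1 sample here, with no replicate error, and every interval in parentheses is a 95% interval for counting error only. There were 5882 control cells with 68391214 UMIs (median 10189 per cell) and 5882 cells of leukemic hosts with 76059014 UMIs (median 10458). The mitochondrial share of UMIs was 3.56% in control and 5.14% in leukemic hosts, and 18 cell barcodes occurred in both groups. The part of these differences in the results was not tested.

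Interferons bind receptors that signal through JAK kinases and STAT factors. Type I interferons act mainly through the interferon-stimulated response element (ISRE), and interferon gamma through the gamma-activated site (GAS), a palindrome. IFITM proteins sit in the plasma membrane and in endosomes, where they hinder the entry of enveloped viruses, and stem cells are known to express some of them without infection. SERPINA3G, also called Spi2A, is an intracellular inhibitor of cysteine cathepsins that protects cells from lysosomal proteases, and interferon gamma is known to induce it.

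The promoters are shown because the 4 genes, although grouped as interferon-responsive, differ in these elements near the start shown for each. All 4 matched a RefSeq promoter by symbol. Each line below runs 5′ to 3′ on the gene's strand, from 70 bases before an annotated start to 30 bases from it on, in the GRCm38.p6 assembly. Capitals mark matches to an ISRE core (GAAA, 2 bases of any kind, GAAA) or to a GAS (TTC, 3 bases of any kind, GAA).
Serpina3g, chr12:104236077-104236176, plus strand: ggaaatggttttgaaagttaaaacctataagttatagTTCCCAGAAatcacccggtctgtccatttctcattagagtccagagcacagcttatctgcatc
Ifitm1, chr7:140968006-140968105, plus strand: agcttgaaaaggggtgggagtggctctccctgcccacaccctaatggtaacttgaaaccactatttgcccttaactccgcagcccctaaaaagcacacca
Ifitm2, chr7:140955932-140956031, minus strand: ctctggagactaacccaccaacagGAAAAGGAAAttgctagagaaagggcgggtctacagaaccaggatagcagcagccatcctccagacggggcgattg
Ifitm3, chr7:141010715-141010814, minus strand: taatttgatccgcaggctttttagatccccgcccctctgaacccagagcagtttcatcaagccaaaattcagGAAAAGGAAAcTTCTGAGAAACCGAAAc

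Both strands of the whole windows, from 250 bases before to 50 bases after each start, were searched for these letters. Serpina3g held 1 GAS match, at positions -33 to -25. Ifitm2 held 1 ISRE match, at -46 to -37. Ifitm3 held 2 ISRE matches, at 3 to 12 and 20 to 29, and 1 GAS match, at 14 to 22, which overlaps the second ISRE match. Ifitm1 held neither set of letters in this window. The start used for Ifitm1, 140968076, lies inside the gene, which begins at 140967429. That of Ifitm2, on the minus strand, is 140955961, inside a gene that begins at 140959686. Matches near the outer ends of both genes are not given here. Of 32851 mouse promoters of this length, 3.44% held the ISRE core and 8.30% the GAS letters. An NF-kB pattern (GGGA, any base, TT, any base, CC) occurred in 1.20% of promoters and in none of the 4.

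The 3 Ifitm genes lie in 1 cluster on chromosome 7, in the order Ifitm5, Ifitm2, Ifitm1, Ifitm3 and Ifitm6. The gap from Ifitm2 to Ifitm1 is 7742 bases, and that from Ifitm1 to Ifitm3 is 39762 bases. Serpina3g, at 104236147 to 104241939 on chromosome 12, lies 15017 bases from Serpina3f, its neighbor and relative. Part of the last 500 bases of these transcripts is shared with related genes, counted as words of 60 bases. The shared part was 38.3% for Ifitm2, mostly with pseudogenes, 16.2% for Serpina3g, 7.71% for Ifitm3 and 5.90% for Ifitm1. Reads from shared stretches can be split or dropped, and their handling is not given in the sources used here.

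Progenitor types were found by clustering the authors' map of the cells and naming clusters by marker genes. The comparison covers 8 named classes and 6 clusters without a name, with 30 or more cells per group each. HSC-like cells, for hematopoietic stem cells, had the HSC markers Mecom and Hlf among their leading genes, and numbered 324 in control and 1117 in leukemic hosts. Erythroid-like cells, led by Car1, Ermap and Klf1, numbered 848 and 203. The cells were KIT+ by the sort, and Kit itself was at 369.8 and 206 CPM (UMIs of a gene scaled to the total of its group) over all cells. Cells with a Kit UMI, among 3000 UMIs drawn at random from each cell of at least that depth, numbered 3852 and 2633. In these cells the log2 folds of the 4 genes were 3.17 for Serpina3g, 2.91 for Ifitm1, 0.24 for Ifitm2 and 1.41 for Ifitm3. Ifitm1 was among the leading genes of 1 HSC-like cluster, and the map was made from the same cells, so levels across classes are not independent of the classes.

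Over all cells, 3 of the 4 genes were over 2-fold higher in leukemic hosts, where 1.53% of the 8781 genes averaging 10 CPM or more were higher by that much. Serpina3g was at 41.3 CPM (39.8 to 42.9) in the control and 362 CPM (358 to 366) in leukemic hosts, a log2 fold of 3.13 (3.08 to 3.19) and rank 12 of the 8781 genes. Ifitm1 was at 299 CPM (295 to 303) and 2346 CPM (2335 to 2356), a log2 fold of 2.97 (2.95 to 2.99) and rank 16. Over all cells these 2 genes had folds of similar size from different starting levels, while in HSC-like cells the log2 folds were 1.78 for Serpina3g and 3.17 for Ifitm1, and in erythroid-like cells 7.24 and 3.54. With class levels weighted by the class shares of leukemic hosts, they were 2.32 and 2.82.

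Ifitm3 was at 392 CPM (387 to 397) and 1025 CPM (1018 to 1032), a log2 fold of 1.39 (1.37 to 1.41) and rank 73. Ifitm2 was at 834 CPM (827 to 841) and 1000.4 CPM (993 to 1008), a log2 fold of 0.26 (0.25 to 0.28) and rank 1160. The Ifitm genes therefore did not move by a common factor: for each Ifitm1 UMI there were 1.31 Ifitm3 UMIs in the control and 0.437 in leukemic hosts.

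**Figure D1:**
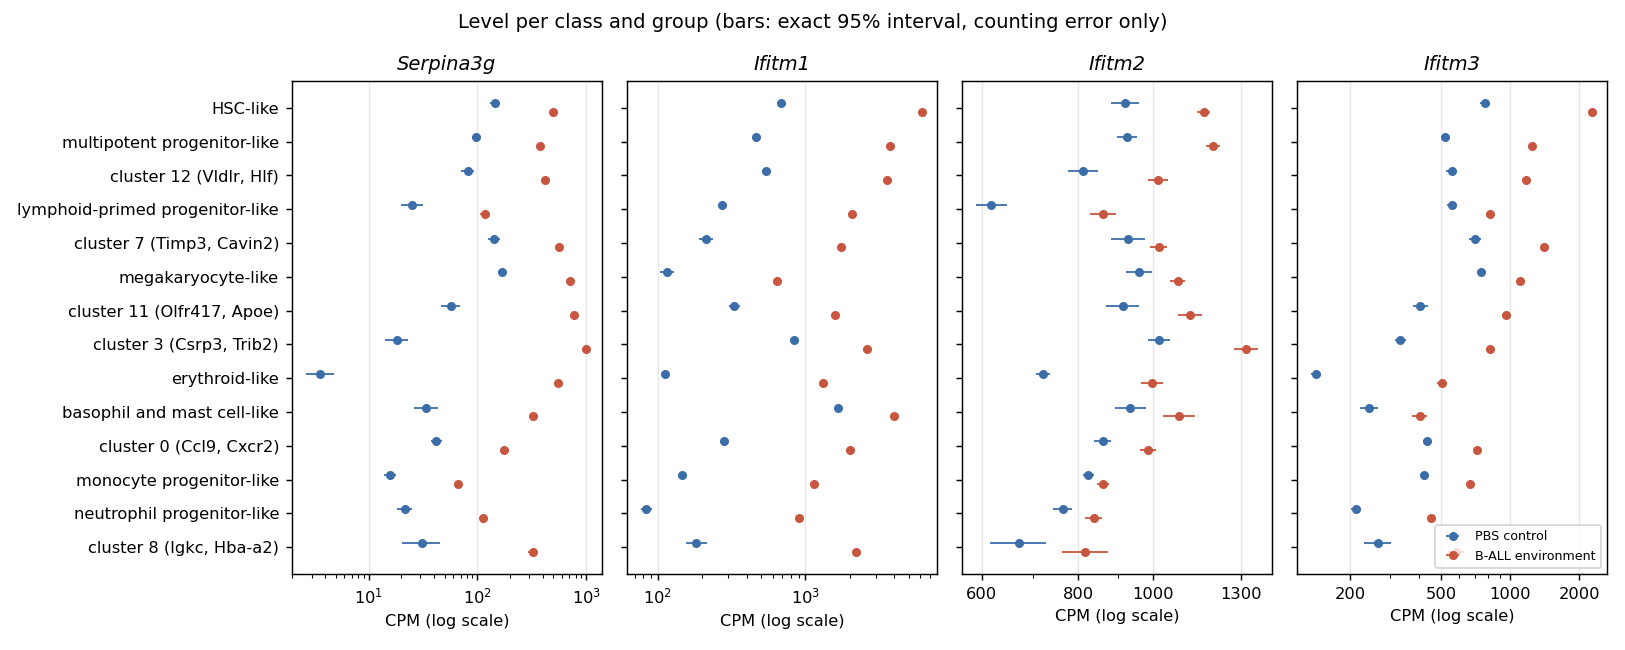
Level of each gene in CPM (log axis) in 14 classes of progenitors, for the PBS control (blue) and the B-ALL environment (red). Each point is the sum over the cells of a class and bars are exact 95% intervals for counting error. The red points lie right of the blue ones in all 14 classes for all 4 genes, and the Ifitm2 axis spans only 618 to 1320 CPM.

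Ifitm1, which encodes an IFITM protein of the cell surface, was highest in the control in basophil and mast cell-like cells, at 1665 CPM (1607 to 1724). The unnamed cluster led by Csrp3 and Trib2 followed at 844 CPM and HSC-like cells at 688 CPM (657 to 721). Neutrophil progenitor-like cells were lowest, at 83.9 CPM (77.1 to 91.2). In leukemic hosts HSC-like cells were highest, at 6206 CPM (6156 to 6256), and megakaryocyte-like cells lowest, at 639 CPM (621 to 658). Basophil and mast cell-like cells were second, at 4009 CPM.

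The Ifitm1 difference was over 2-fold in 14 of 14 classes. The share of all genes over 2-fold higher was 0.268% in monocyte progenitor-like, 0.39% in neutrophil progenitor-like, 0.953% in lymphoid-primed progenitor-like, 1.4% in multipotent progenitor-like, 1.67% in basophil and mast cell-like and 2.35% in megakaryocyte-like cells. Among the unnamed clusters it was 0.402% in the one led by Ccl9 and Cxcr2, 1.61% for Vldlr and Hlf, 2.04% for Timp3 and Cavin2, 2.43% for Olfr417 and Apoe, 2.68% for Csrp3 and Trib2 and 9.06% for the shallow one led by Igkc and Hba-a2. The log2 folds ran from 1.27 (1.21 to 1.33) in basophil and mast cell-like cells to 3.59 (3.35 to 3.83) in that shallow cluster, with a median of 2.94. The lowest folds, 1.27 and 1.63, belonged to the classes with the highest control levels. In HSC-like cells the log2 fold was 3.17 (3.10 to 3.24), where 2.57% of genes were over 2-fold higher. Ifitm1 had the highest fold of 8199 genes in monocyte progenitor-like cells, of 8195 in neutrophil progenitor-like cells and of 8457 in the cluster led by Ccl9 and Cxcr2. In neutrophil progenitor-like cells its level went from 83.9 to 905 CPM.

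Ifitm3, best known for blocking virus entry from endosomes, was highest in HSC-like cells in both groups. It was at 775 CPM (741 to 810) in control HSC-like cells, within counting error of megakaryocyte-like cells at 748 CPM (715 to 782), and at 2273 CPM (2243 to 2304) in those of leukemic hosts. The lowest control level was in erythroid-like cells, at 142 CPM, and the lowest level in leukemic hosts in basophil and mast cell-like cells, at 402 CPM. All 14 classes were higher in leukemic hosts, 9 of them by over 2-fold. The shares of all genes over 2-fold higher are those given above for Ifitm1, and 2.24% in erythroid-like cells. The counting interval reached below 2-fold in neutrophil progenitor-like cells. It also did so in the clusters led by Timp3 and Cavin2, by Vldlr and Hlf, and by Igkc and Hba-a2. The log2 folds ran from 0.56 (0.47 to 0.65) in lymphoid-primed progenitor-like cells to 1.83 (1.73 to 1.92) in erythroid-like cells, with 1.55 (1.49 to 1.62) in HSC-like cells. Megakaryocyte-like cells, with the second highest control level, also had a low log2 fold, 0.56 (0.49 to 0.63).

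Ifitm2, the most even of the 3 across classes, ranged from 618 CPM in lymphoid-primed progenitor-like cells to 1018 CPM in the cluster led by Csrp3 and Trib2 in the control. In leukemic hosts it ranged from 817 to 1320 CPM. Its log2 fold was above 0 in 14 of 14 classes and over 2-fold in none, from 0.06 (0.03 to 0.10) in monocyte progenitor-like cells to 0.48 (0.40 to 0.57) in lymphoid-primed progenitor-like cells. In HSC-like cells it was at 921 CPM (884 to 958) and 1164 CPM (1142 to 1186).

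**Figure D2:**
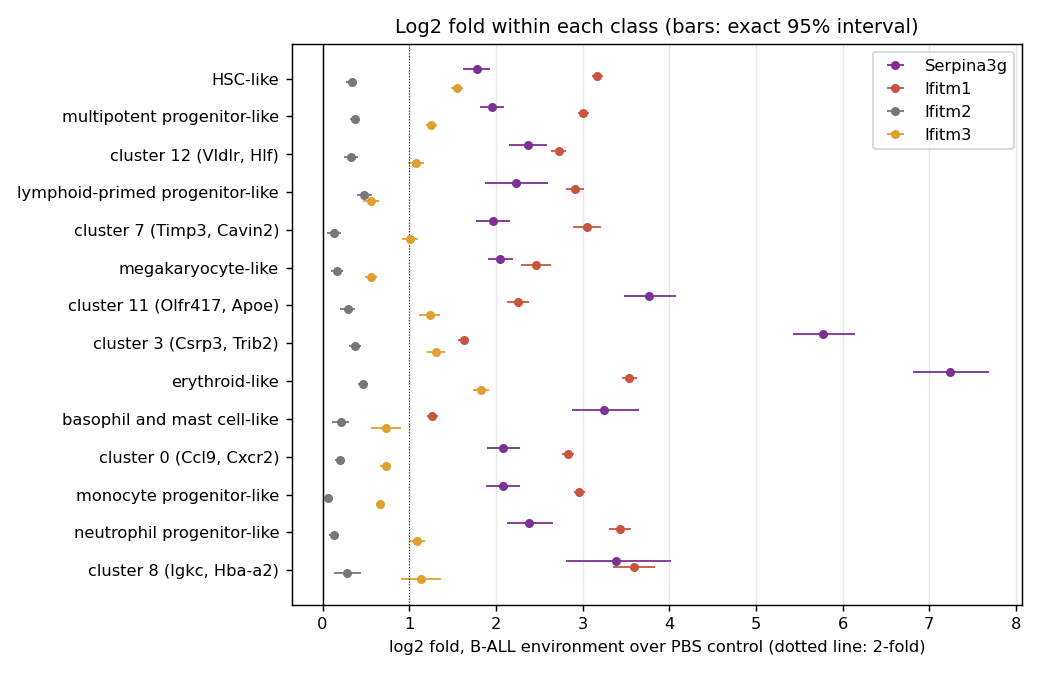
Log2 fold of each gene, B-ALL environment over PBS control, within 14 classes; bars are exact 95% intervals for counting error and the dotted line marks 2-fold. Serpina3g and Ifitm1 lie right of the dotted line in 14 classes, Ifitm3 in 9 and Ifitm2 in none, and Serpina3g reaches 7.24 in erythroid-like cells.

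Serpina3g was over 2-fold higher in 14 of 14 classes, with log2 folds from 1.78 (1.63 to 1.94) in HSC-like cells to 7.24 (6.82 to 7.69) in erythroid-like cells and a median of 2.30. In control hosts it was highest in megakaryocyte-like cells, at 169 CPM (154 to 186). HSC-like cells followed at 145 CPM (130.3 to 160.1), with an interval that overlaps that of megakaryocyte-like cells, and the cluster led by Timp3 and Cavin2 at 143 CPM, within counting error of HSC-like cells. Multipotent progenitor-like cells were next, at 98.0 CPM. These 4 classes had the smallest log2 folds, 1.78 to 2.05, and a fold shares the control level that it is set against.

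The order of the classes differed in leukemic hosts. Serpina3g was highest there in the cluster led by Csrp3 and Trib2, at 990 CPM (948 to 1032) against 18.1 CPM (14.1 to 23.0) in the control. That cluster came nearest to the erythroid marker list, at a mean log2 enrichment of 0.48, under the 0.5 required for a name. The cluster led by Olfr417 and Apoe followed with 780 CPM, megakaryocyte-like cells with 703 CPM, and HSC-like cells were sixth with 496 CPM (482 to 511). Monocyte progenitor-like cells were lowest, at 66.4 CPM (62.3 to 70.7) against 15.7 CPM.

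Erythroid-like cells had the lowest control level of Serpina3g, with 46 UMIs in 848 cells, or 3.62 CPM (2.65 to 4.83). In leukemic hosts there were 1968 UMIs in 203 cells, or 546 CPM (522 to 571), which is 151-fold higher, in a class where 2.24% of genes were over 2-fold higher. The fold was rank 3 of 8203 genes. Both erythroid-like clusters showed it: 6.0 and 916 CPM in the cluster led by Car1 and Ermap, and 1.48 and 191 CPM in the cluster led by Mt2 and Car1. When cells were assigned one by one by their markers, the log2 fold was 6.0, and in cells thinned to 3000 UMIs it was 8.33.

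The erythroid-like cells of the 2 groups also differed in erythroid genes. Ermap, a red cell membrane protein, was at 466 CPM in the control and 188 CPM in leukemic hosts, and Car1, a carbonic anhydrase, at 4149 and 2548 CPM. Gata1, a master factor of the lineage, was at 168 and 157 CPM. In the cluster led by Car1 and Ermap, Rhd, a blood group protein, was at 56.1 and 2.26 CPM (337 UMIs in 545 cells and 4 in 136). In the cluster led by Mt2 and Car1, Rhd was at 157 and 143 CPM and Gata1 at 168 and 153 CPM. Other genes were lower there in leukemic hosts: Ermap at 514 and 314 CPM, Car1 at 4579 and 3269 CPM, and Kit at 362 and 144 CPM. The log2 fold of Serpina3g in that cluster was 7.01 (6.11 to 8.08). HSC genes were low in erythroid-like cells: Hlf was at 9.91 and 18.3 CPM, against 453 and 496 CPM in HSC-like cells, and Mecom at 1.34 and 6.94 CPM.

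To compare cells of unequal depth, each cell was thinned to 3000 UMIs, which left out 179 shallower cells, all from leukemic hosts. In HSC-like cells (median depth 7256.5 and 7293 UMIs), a Serpina3g UMI was found in 98 of 324 control cells, 30.2% (25.3 to 35.6), and in 761 of 1075 cells of leukemic hosts, 70.8% (68.0 to 73.5). Without thinning, the shares were 53.4% and 88.5%. The lowest control share was 0.708% (0.260 to 1.53), or 6 of 848 erythroid-like cells at a median depth of 13124.5 UMIs. The lowest share in leukemic hosts was 16.1% (13.5 to 19.0) in monocyte progenitor-like cells at a median of 18942 UMIs, and the highest was 84.9% (79.7 to 89.2) in the cluster led by Csrp3 and Trib2. These shares differed between classes beyond counting error in both groups, and the part of free RNA in them was not tested.

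An Ifitm1 UMI was found in 77.2% (72.2 to 81.6) of control HSC-like cells and in 1074 of 1075 HSC-like cells of leukemic hosts. The median was 2 Ifitm1 UMIs per HSC-like cell in the control and 19 in leukemic hosts, and the top decile of cells held 35% and 23.0% of the Ifitm1 UMIs. The level was thus spread over nearly all HSC-like cells rather than held by a few. In neutrophil progenitor-like cells, the lowest control class, the Ifitm1 share was 18.8% (15.1 to 23.0), and 76.3% in leukemic hosts.

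An Ifitm3 UMI was found in 82.7% and 99.3% of HSC-like cells, and an Ifitm2 UMI in 90.4% and 95.7%. The Ifitm2 share was at least 80.1% in each of the 14 classes of both groups, so no class lacked it. All 4 genes were detected together in 18.2% of control HSC-like cells and in 68.0% of those of leukemic hosts. Over all cells, these shares were 4.44% and 47.6%. Serpina3g and Ifitm1 were found together in 23.1% of control HSC-like cells, close to the product of their separate shares, 23.3%.

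**Figure D3:**
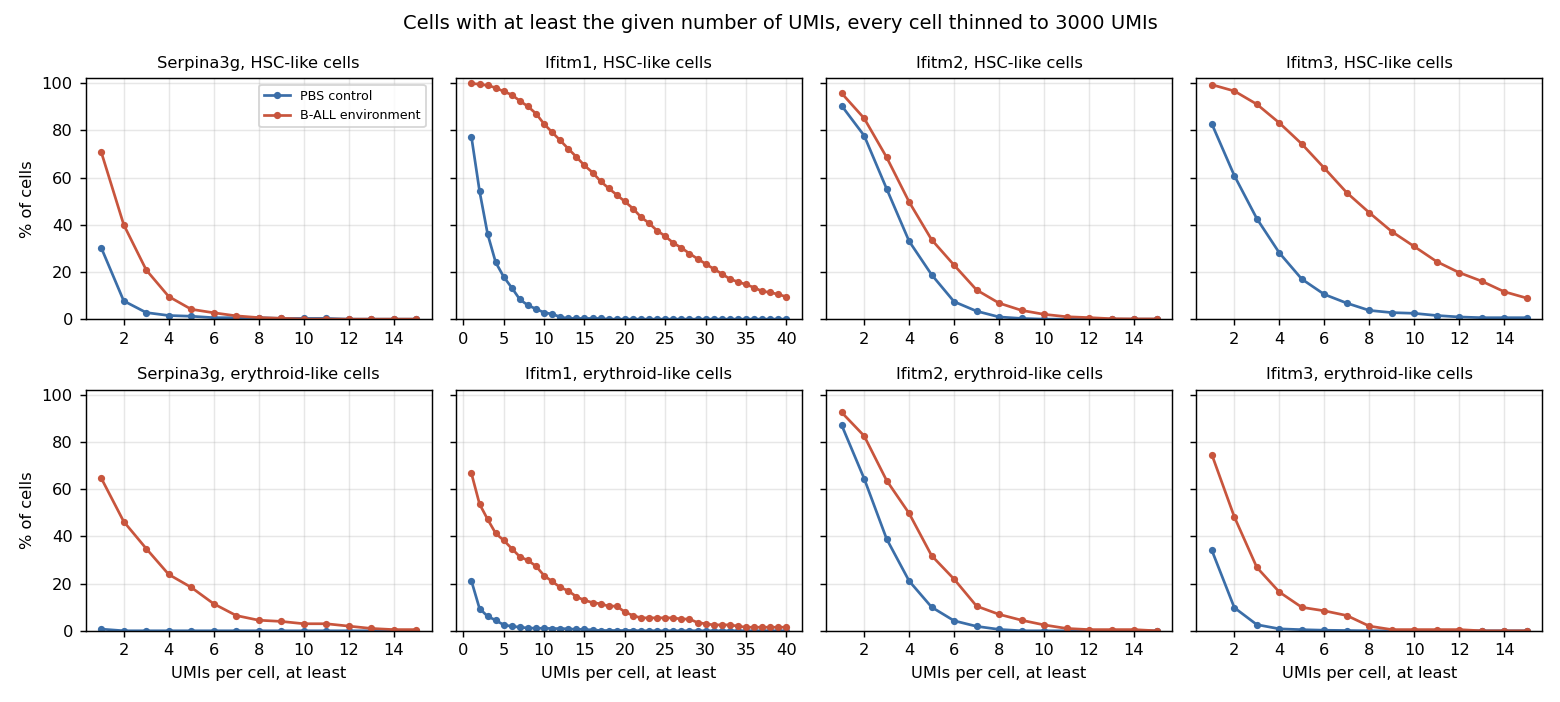
Percent of HSC-like cells (top) and erythroid-like cells (bottom) with at least the number of UMIs on the x axis, for each gene, in the PBS control (blue) and the B-ALL environment (red), with every cell thinned to 3000 UMIs. At least 10 Ifitm1 UMIs were found in 82.7% (red) and 2.78% (blue) of HSC-like cells, and no control erythroid-like cell had more than 1 Serpina3g UMI.

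In erythroid-like cells the per-cell picture differed between the genes. Serpina3g was found in 130 of 201 cells of leukemic hosts, 64.7% (57.6 to 71.3), and 34.8% of them had at least 3 UMIs. Ifitm1 was found in 21.1% of the control and 66.7% of leukemic hosts, with the top decile of cells holding 79.9% and 47.7% of its UMIs. Ifitm2 was found in 87.1% and 92.5% of these cells.

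The classes held different shares of the groups, and HSC-like cells made up 5.51% of control cells and 19.0% of those of leukemic hosts. HSC-like cells held 8.71% of all Ifitm1 UMIs in the control and 32.4% in leukemic hosts, 7.49% and 27.2% for Ifitm3, and 13.3% and 16.8% for Serpina3g. With class levels weighted by the control class shares in both groups, the log2 folds were 3.03 for Serpina3g, 2.57 for Ifitm1, 0.28 for Ifitm2 and 1.06 for Ifitm3. With the shares of leukemic hosts they were 2.32, 2.82, 0.27 and 1.14. With the control levels kept and the shares alone exchanged, they were 0.74, 0.16, 0.05 and 0.36.

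The HSC-like class joined 2 clusters of the map. One was led by HSC genes and by the interferon gamma-induced GTPase gene Iigp1, with 201 and 678 cells, and in it the log2 folds were 1.56 for Serpina3g, 2.97 for Ifitm1, 0.37 for Ifitm2 and 1.35 for Ifitm3. In the same cluster Iigp1 was at 138.5 CPM in the control and 84.6 CPM in leukemic hosts, a log2 fold of -0.71 (-0.94 to -0.47). Ifit1, a type I interferon target, was at 58.3 and 53.2 CPM there. The other cluster, led by Slfn2, had 123 and 439 cells, and Socs2 was among the leading genes of both clusters. In the cluster led by Slfn2, the log2 folds of the 4 genes were 2.25, 3.58, 0.34 and 1.92, and Iigp1 was at 15.7 and 47.2 CPM. Across both HSC-like clusters, 8 of 15 HSC markers were over 2-fold higher in leukemic hosts, against 2.57% of all genes. The median log2 fold of these 15 HSC markers was 1.36. Of 6 neutrophil progenitor markers averaging 10 CPM or more in HSC-like cells, 4 were over 2-fold lower, against 1.5% of all genes. The median log2 fold of these 6 was -3.19. The part of these marker differences in the levels above was not tested.

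Relatives of the 4 genes were mostly scarce. Serpina3f had 69 UMIs in the control and 906 in leukemic hosts, a log2 fold of 3.53 (3.17 to 3.90), with 1 and 53 UMIs in erythroid-like cells. It was the 1 other gene of the 11 listed Serpina3 genes in the matrix. Ifitm7, on chromosome 16, had a log2 fold of -0.19 (-0.32 to -0.07) from 15.2 CPM. Ifitm6 was at 3.43 and 4.14 CPM and Ifitm5 at 0.947 and 1.23 CPM, both under 10 CPM. Over all cells, none of the 5 other serpins averaging 10 CPM or more was over 2-fold higher or lower, against 1.53% and 1.07% of all genes. Serpinb1a, an inhibitor of neutrophil proteases, was lowest at -0.45 and Serpinb6a highest at 0.50. In HSC-like cells, 1 of 6 was over 2-fold higher, Serpinf1 at 1.08, and 1 lower, Serpinb1a at -1.14. Among all genes of HSC-like cells, 2.57% were over 2-fold higher and 1.5% lower. Of 14 cathepsins and granule proteases, the enzymes that such inhibitors meet, 1 was over 2-fold lower: Ctsg, cathepsin G, at -1.14 over all cells, where 1.07% of genes were lower by that much. Ctsf, a cysteine cathepsin, was highest at 0.69.

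The interferon-response lists had medians near that of all genes, with a few members over 2-fold higher. Over all cells, 1.53% of genes were over 2-fold higher and 1.07% lower. Of 24 genes of the type I interferon list averaging 10 CPM or more, 1 was over 2-fold higher and 0 lower. Their median log2 fold was 0.18, against -0.02 over all genes. Oasl2, a 2'-5' oligoadenylate synthetase-like protein, was highest at 1.04 (0.92 to 1.16), followed by Rtp4 at 0.64, and Cmpk2 was lowest at -0.65, followed by Isg20 at -0.48. Of 23 genes of the interferon gamma list, 2 were over 2-fold higher and 0 lower, with a median of 0.08. Those were Cd274, which encodes PD-L1, at 1.47 (1.33 to 1.62) and Iigp1 at 1.11. In HSC-like cells, which held 672 of the 1090 Iigp1 UMIs of leukemic hosts, its log2 fold was -0.34 (-0.56 to -0.11). The antigen-processing genes Tap2, at -0.55, and Psmb8, at -0.48, were lowest.

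In HSC-like cells the type I list had 0 of 31 genes over 2-fold higher or lower, where 2.57% of all genes were higher and 1.5% lower, and a median of 0.05. The interferon gamma list had 3 of 28 higher there and a median of 0.001. In erythroid-like cells the type I list had 2 of 20 higher, 2 lower (2.24% of all genes were higher and 1.19% lower there) and a median of -0.19, and the interferon gamma list 1 of 19 higher and a median of 0.13. In all cells, HSC-like cells and erythroid-like cells, the medians of both lists lay within 0.2 of 0 on the log2 scale. Over the 14 classes, the type I median ran from -0.29 in the cluster led by Csrp3 and Trib2 to 0.48 in that led by Igkc and Hba-a2. The interferon gamma median ran from -0.18 in megakaryocyte-like cells to 0.60 in the cluster led by Igkc and Hba-a2. The part of interferon in the levels of Serpina3g, Ifitm1 and Ifitm3 was not tested.

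Of 22 genes of interferon receptors and signaling, 2 were over 2-fold higher: Socs3, at 2.93 (2.71 to 3.17), and Socs1, at 2.42 (2.25 to 2.59), which encode feedback inhibitors of JAK and STAT signaling. Ifngr1, the ligand-binding chain of the interferon gamma receptor, was the 1 gene over 2-fold lower, at 283 and 139 CPM, a log2 fold of -1.02. Within classes its log2 fold ran from -0.24 in multipotent progenitor-like cells to -1.87 in the cluster led by Igkc and Hba-a2, with -0.40 in HSC-like and -0.71 in erythroid-like cells. Irf1, an early interferon gamma target, was at 36.2 and 43.4 CPM. Of the 12 listed ligand genes, which include Il27, Tnf and Il6 beside interferons, 3 were in the matrix. Their sum over all cells was 3.02 and 3.49 CPM, and it need not come from interferon genes. In basophil and mast cell-like cells, where 1 of them averaged 10 CPM or more, the sum was 20.8 and 15.6 CPM. Over all cells, where these lists were counted, 1.53% of genes were over 2-fold higher and 1.07% lower. Of 13 genes of the STAT3 and STAT5 list, 6 were over 2-fold higher and 0 lower, with a median of 1.00. Socs2, at 5.0 (4.75 to 5.27), and Cish, at 3.54 (3.37 to 3.72), are feedback inhibitors downstream of STAT5, and were the highest of that list. Il6ra, an interleukin-6 receptor chain, was lowest at -0.68, followed by Mcl1, a survival factor, at -0.21. Of 8 surface antigens of stem cells that interferons can induce, Ly6a, which encodes SCA-1, at 2.56, and Cd274 were over 2-fold higher, and Ly6c2, at -1.25, and Ifngr1 were over 2-fold lower.

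**Figure D4:**
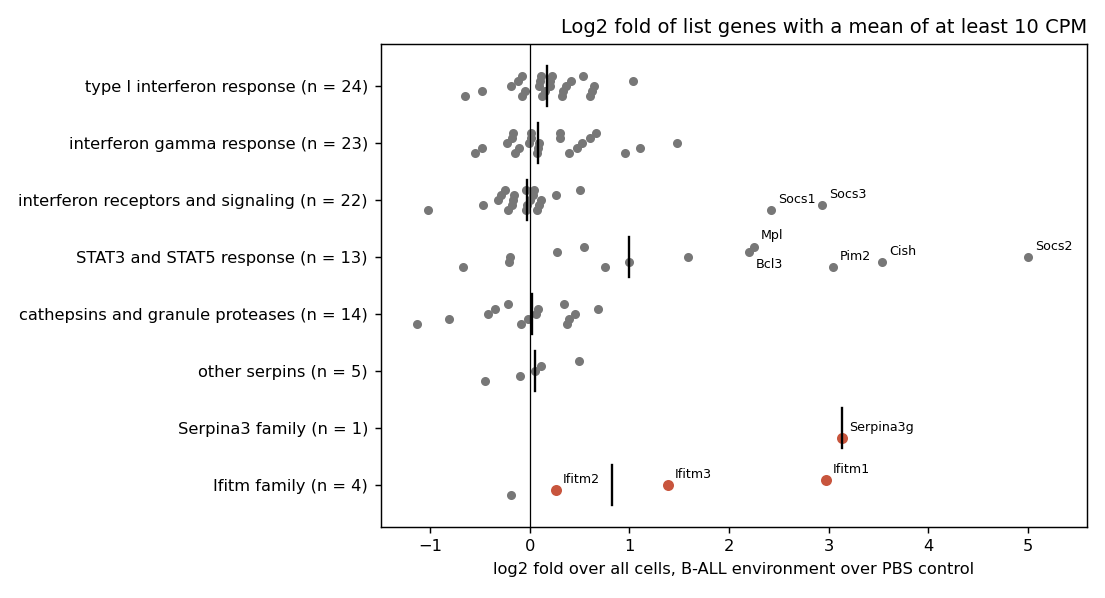
Log2 fold over all cells (x axis, B-ALL environment over PBS control) of each gene of 8 lists averaging 10 CPM or more; n is the number of genes, red points are Serpina3g and the 3 Ifitm genes, black bars are medians, and genes beyond 2 on the axis are named. The interferon lists center near 0, at 0.18 and 0.08, and the STAT3 and STAT5 list at 1.00.

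The genes whose level ran most like each gene over the 28 class and group levels were ranked by Pearson's r of log2(CPM + 10). The 28 levels come from 2 groups and share their depth and classes, so these values are descriptions. For Serpina3g, they were Casp4, an inflammatory caspase, at 0.93, Serpina3f at 0.88, Tmem250-ps at 0.86, Ccnd3 at 0.85 and Maea at 0.84. Casp4 was at 15.5 CPM in the control and 34.1 CPM in leukemic hosts. In erythroid-like cells it was at 5.59 and 32.2 CPM. For Ifitm3, they were Lysmd2, Socs1, Cltb and S100a6, all at 0.90, and Bex1 at 0.88. For Ifitm1, they were Dcaf15 and Gm28875 at 0.85, Marcksl1 and Banp at 0.83 and Ube2o at 0.80. For Ifitm2, they were Rnd2 at 0.83, Rtl8a at 0.82, Nbdy and Arhgef28 at 0.80 and Gatad1 at 0.78. Among the 4 genes, r ran from 0.60 between Ifitm1 and Ifitm3 to 0.78 between Serpina3g and Ifitm3.

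Of 5 listed plasma cell markers, 3 were in the matrix. Their sum was 119 CPM in the control against 470 CPM in leukemic hosts over all cells, and 98.9 against 306 CPM in HSC-like cells. Over all cells, 1 of the 2 averaging 10 CPM or more was over 2-fold higher, against 1.53% of all genes. In HSC-like cells only 1 averaged 10 CPM or more, and it was over 2-fold higher, against 2.57% of all genes. The part of these markers in the results was not tested. The 4 B cell markers in the matrix, of 10 listed, summed to 44.0 CPM in the control and 52.6 CPM in leukemic hosts, and the pre-B cell gene Vpreb1 was at 4.26 and 3.16 CPM. Sums were 339 and 264 CPM for T and NK cell markers, 609 and 573 CPM for dendritic cell markers, 20.4 and 22.7 CPM for macrophage markers and 83.3 and 88.6 CPM for stromal and endothelial markers. Without cells in which globin or immunoglobulin genes exceeded 1% of UMIs, the log2 folds over all cells were 3.13 for Serpina3g, 2.97 for Ifitm1, 0.26 for Ifitm2 and 1.39 for Ifitm3.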

How the data were processed

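The authors deposited a matrix of unnormalized UMI counts for each gene in each cell, and the authors' cell table gives a group prefix, UMI counts and map coordinates (a score without unit). The prefix tm was read as the tumor environment. Per the submitters' processing notes, Cell Ranger 4, Seurat 4.0.1 and mm10 were used, and the filters are not given in the sources used here. Summed counts matched the deposited total of each cell.

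Cells were clustered on the authors' map (scanpy 1.11.5, Leiden, 30 neighbors, resolution 0.3). A cluster was named where its best marker list reached a mean log2 enrichment of 0.5, at least 3 of the markers were found in 10% of cells, and no other list had more markers among the 10 leading genes. T and NK cell-like cells (21 and 32) were too few to compare. No doublet caller was run. An alternative left out the 5% of cells with the most UMIs.

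UMIs were summed per class and group, given as CPM after TMM scaling in edgeR 4.0.16 (R 4.3.3). Intervals are exact Poisson (levels), exact conditional (folds) and exact Clopper-Pearson (shares). Counts past 2-fold cover genes averaging 10 CPM or more. The edgeR quasi-likelihood test planned for the case of cells tied to samples was not run, since cells carry no sample. The fold calculation was tested on simulated counts. Promoters and motifs come from RefSeq (GRCm38.p6) and transcripts from GENCODE, both of the build of the files.

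The 4 genes, lists and tests were chosen with earlier results of these data known. Named are the 4 genes, their relatives, some or all of the 2 highest and 2 lowest genes of the lists and the 5 genes most like each gene. Markers and a few genes beside a result (such as Irf1, Rhd, Casp4 levels) were added after their values were seen.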

Additional observations from a re-analysis of the deposited data

How the results depend on the processing

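Alternatives changed 1 choice at a time, except the clusters of centred values, which left out 626 genes and used 30 components of 2000 variable genes, 15 neighbors and resolution 1 in place of the authors' map; those on Kit, on single HSC-like clusters and on Serpina3g in erythroid-like cells were chosen after seeing the data. Every fold that was rerun, over all cells, in HSC-like cells and for Serpina3g in erythroid-like cells, stayed above 0 in every alternative. Those of Serpina3g, Ifitm1 and Ifitm3 stayed past 2-fold and that of Ifitm2 never was. Values that moved beyond their counting interval follow as log2 folds; the cause was not tested. Over all cells, for Serpina3g, Ifitm1, Ifitm2 and Ifitm3 where each moved: weighting by control class shares gave 3.03, 2.57 and (Ifitm3) 1.06, and by those of leukemic hosts 2.32, 2.82 and (Ifitm3) 1.14. Thinning to 3000 UMIs gave 3.04 for Serpina3g, 0.35 for Ifitm2 and 1.58 for Ifitm3. Scaling by total UMIs gave 3.01 for Ifitm1, 0.30 for Ifitm2 and 1.42 for Ifitm3, and leaving out the 5% of cells with the most UMIs gave 2.99 for Ifitm1 and 1.42 for Ifitm3. Cells with a Kit UMI gave 2.91 for Ifitm1, 0.24 for Ifitm2 and 1.41 for Ifitm3.

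In HSC-like cells, clusters at resolution 0.6 gave 2.16 for Serpina3g, 3.27 for Ifitm1 and 1.73 for Ifitm3. Assigning cells one by one gave 2.80 for Ifitm1, 0.42 for Ifitm2 and 1.20 for Ifitm3. Clusters of centred values gave 1.43, 2.81, 0.44 and 1.16 for the 4 genes. The cluster led by Iigp1 and Hlf alone gave 1.56 for Serpina3g, 2.97 for Ifitm1 and 1.35 for Ifitm3, and the other cluster 2.25, 3.58 and 1.92. Cells with a Kit UMI gave 3.07 for Ifitm1 and 0.26 for Ifitm2, and thinning gave 0.41 for Ifitm2. Serpina3g in erythroid-like cells was at 6.0 with cells assigned one by one, 6.24 with centred values and 8.33 after thinning. DESeq2 size factors (DESeq2 1.42.0), no filter on low counts and cells of at least 3000 UMIs moved none of the values they were run on.

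No paired analysis was possible because the cells carry their group but no replicate, so neither a replicate block nor leaving out each replicate was run. The erythroid-like Serpina3g fold rests on 46 control UMIs, and that of the cluster led by Igkc and Hba-a2 on 26. The share of HSC-like cells with a Serpina3g UMI depends on depth: it was 43.2% and 84.8% at 5000 UMIs.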

Other observations

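Beyond HSC-like cells, basophil and mast cell-like cells had Ifitm1 unevenly spread over cells in the control. At 3000 UMIs the top decile of the 232 control cells held 45.0% of the Ifitm1 UMIs, with a median of 3 and a maximum of 42 UMIs per cell, and 73.3% of cells had a UMI. In leukemic hosts the top decile of 149 cells held 31.0%, with a median of 12 UMIs and a UMI in 97.3% of cells. Serpina3g in the same cells went from 34.1 to 325 CPM, the fourth highest fold of 8763 genes, and Ifitm3 from 243 to 402 CPM.

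Megakaryocyte-like cells had the opposite mix of the 4 genes. Ifitm1 made up 5.84% of the UMIs of the 4 genes there in the control, against 57.9% in basophil and mast cell-like cells, and there were 6.43 Ifitm3 UMIs per Ifitm1 UMI against 0.146. In leukemic hosts the ratios were 1.73 and 0.100. Serpina3g made up 19.9% of the 4-gene UMIs of megakaryocyte-like cells in leukemic hosts and 4.89% of those of HSC-like cells.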
